A study of Mus musculus with 29 samples.

Results

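The genes described here are 10 transcription factors of the adipogenic cascade, Pparg, Cebpa, Cebpb, Cebpd, Klf4, Klf5, Klf15, Ebf1, Rxra and Stat5a, out of 11959 genes counted by RNA-seq in differentiating 3T3-L1 cells. They were chosen by name, and the Ensembl identifiers of all 10 were found in the table. The 4 early factors are Cebpb, Cebpd, Klf4 and Klf5, and the 3 late factors are Pparg, Cebpa and Klf15. Ebf1, Rxra and Stat5a belong to neither set and are treated as partners.

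Adipocyte formation in culture runs through a relay of transcription factors. Hormonal induction switches on C/EBP beta, C/EBP delta and some Krüppel-like factors, and these act on the genes of PPAR gamma and C/EBP alpha, which then sustain each other and the genes of lipid storage. PPAR gamma binds DNA together with a retinoid X receptor, and EBF1 and STAT5A act on the Pparg gene or beside its product.

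3T3-L1 cells, an established line of mouse embryo fibroblasts, turn into white adipocytes when induced after confluence. All cultures received the same media: preadipocyte medium to day 0, a differentiation medium with dexamethasone, insulin, isobutylmethylxanthine and a PPAR gamma agonist from day 0 to day 2, and adipocyte medium with insulin and dexamethasone after that. From day -2, at confluence, to day 0, the cells were given 10 µM KDM5-C70 (C70), which inhibits the KDM5 demethylases of histone H3 lysine 4, or DMSO vehicle. RNA was collected at days 0, 1, 2 and 7 from 29 samples in 8 groups, with 3 vehicle and 4 C70 samples at days 0, 1 and 2, and 4 of each at day 7. After day 0 the inhibitor was no longer given. The line is a single established one, and the labels do not say whether replicates were separate cultures, so p-values measure the spread between these samples, which may be technical.

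Levels are given as CPM, counts per 1000000 of the library after scaling by the trimmed mean of M values. A gene was called when its Benjamini-Hochberg adjusted p over all 11959 genes was under 0.05 by edgeR's quasi-likelihood test and the higher level exceeded the lower by over 25%, the fold threshold. Library totals ranged from 16320275 to 24037170 counts, at which the lowest factor level in any sample, 0.311 CPM of Klf15 at day 0, was a count of 6. On the opposite strand, Pparg overlaps Gm44079, Cebpa overlaps Gm45091, Cebpb overlaps Tmem189, Cebpd overlaps Spidr, Ebf1 overlaps Gm12158 and Stat5a overlaps Stat3. The libraries were strand-specific but the use of strand in counting is not given in the sources used here, so reads of these partners cannot be told apart with certainty.

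Start-site windows from RefSeq (GRCm38.p6, 250 bases before to 50 after a transcription start) were found for 8 of the 10 factors. Cebpd and Klf5 had no entry. The windows of Cebpb and Klf4, early factors, and of the late factors are printed as those of the early and late sets that the comparison is about. Searched on both strands, capitals mark TTGCG or CGCAA (a core of C/EBP sites, present in 17.5% of 32544 windows of this length), TTGCAA (6.18%), TGACG or CGTCA (a half-site of the cyclic AMP response element, 20.9%) and CACGTG (an E-box, 7.17%).
Cebpb, chr2:167688665-167688964, plus strand: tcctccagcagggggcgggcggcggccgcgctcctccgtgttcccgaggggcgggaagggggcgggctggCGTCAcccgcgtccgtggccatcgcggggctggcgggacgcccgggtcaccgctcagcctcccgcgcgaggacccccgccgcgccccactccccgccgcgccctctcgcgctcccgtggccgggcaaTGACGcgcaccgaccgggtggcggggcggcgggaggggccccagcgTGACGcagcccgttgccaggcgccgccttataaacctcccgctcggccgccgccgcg
Klf4, chr4:55532426-55532725, minus strand: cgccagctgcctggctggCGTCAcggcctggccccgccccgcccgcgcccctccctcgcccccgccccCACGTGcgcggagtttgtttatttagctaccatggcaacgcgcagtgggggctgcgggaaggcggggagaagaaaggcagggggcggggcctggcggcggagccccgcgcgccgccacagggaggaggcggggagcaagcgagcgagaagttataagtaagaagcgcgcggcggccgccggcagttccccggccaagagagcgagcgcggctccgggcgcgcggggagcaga
Cebpa, chr7:35119043-35119342, plus strand: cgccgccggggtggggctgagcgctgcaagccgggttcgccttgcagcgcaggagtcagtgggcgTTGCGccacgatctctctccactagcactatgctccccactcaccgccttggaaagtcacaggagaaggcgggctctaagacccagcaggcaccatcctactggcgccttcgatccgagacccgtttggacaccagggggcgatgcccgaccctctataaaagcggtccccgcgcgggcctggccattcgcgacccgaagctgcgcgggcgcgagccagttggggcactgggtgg
Klf15, chr6:90462326-90462625, plus strand: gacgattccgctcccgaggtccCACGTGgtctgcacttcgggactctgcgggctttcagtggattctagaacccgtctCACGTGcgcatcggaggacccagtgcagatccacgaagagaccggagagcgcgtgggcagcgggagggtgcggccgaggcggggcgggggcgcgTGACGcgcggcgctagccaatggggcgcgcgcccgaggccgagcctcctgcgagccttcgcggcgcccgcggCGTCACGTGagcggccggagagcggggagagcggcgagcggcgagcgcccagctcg
Pparg, chr6:115421816-115422115, plus strand: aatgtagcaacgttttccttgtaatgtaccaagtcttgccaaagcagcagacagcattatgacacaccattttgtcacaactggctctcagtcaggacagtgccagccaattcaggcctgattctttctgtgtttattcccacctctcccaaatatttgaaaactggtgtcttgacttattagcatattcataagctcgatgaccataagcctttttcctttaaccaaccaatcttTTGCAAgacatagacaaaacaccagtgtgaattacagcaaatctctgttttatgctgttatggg
The Cebpb window held 3 matches to TGACG, which begin at -180, -53 and -7 from the start. Klf4 had 1 match to TGACG at -232 and 1 to CACGTG at -182. Cebpa had 1 match to TTGCG at -185. Klf15 had 2 matches to TGACG and 3 to CACGTG, and those at -6 and -3 share letters. Of 3 Pparg windows the one printed, at the start that lies 61115 bases into the gene, had 1 match to TTGCAA at -14, and those at starts 193 and 1398 bases into it held none of the 4 motifs. A match is a description of the letters and not a measured binding site.

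Marker genes moved with the factors. The summed level of 4 preadipocyte markers (Dlk1, Pdgfra, Ly6a and Thy1, with Cd34 not analysed here) ranged from 3382 to 3546 CPM in day 0 vehicle samples, from 655 to 679 at day 2 and from 348 to 480 at day 7. From day 2 to day 7 in vehicle the sum fell with Pdgfra (-1.46), while Dlk1 (0.32), Ly6a (0.65) and Thy1 (0.88) were called higher. With C70 the sum was higher at each of those days, from 3983 to 4256, from 999 to 1075 and from 753 to 881. The summed level of 5 adipocyte markers (Adipoq, Plin1, Cidec, Fabp4 and Lipe) went from between 64.0 and 66.7 CPM in day 0 vehicle to between 13260 and 13870 at day 2, where C70 samples held 7187 to 8332, and at day 7 the ranges overlapped. With C70 this sum was already lower at day 0, at 50.4 to 56.1, and at day 1, at 847 to 853 against 1281 to 1519. At day 0 Fabp4 alone was called, lower (-0.41), and 4 of the 5 markers had a value above 0. Of 5 macrophage markers Cd68 alone was in the table, at 1.13 to 1.67 CPM in day 0 vehicle and 18.7 to 19.8 with C70. It was also higher with C70 at day 1 (log2 2.90) and day 2 (2.06), and was not called at day 7 (-0.31). Of 3 muscle markers Des alone was in the table, higher with C70 at day 0 (0.86), day 1 (1.51) and day 2 (0.47) and not called at day 7 (-0.18). None of 4 endothelial and 3 epithelial markers was in it. In bulk samples fewer cells of a type and less RNA per cell cannot be told apart, and the part of cell makeup in the factor levels was not tested.

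A single library stood apart from its group. Counts of day 7 vehicle replicate 1 differed from those of the 3 other day 7 vehicle samples with a chi-square per degree of freedom of 40.3 to 47.1, against 2.67 to 14 in the other 36 pairs of replicates. Without it the C70 differences at day 7 were 1.03 for Klf5, 0.56 for Klf4, 0.24 for Cebpd, -0.15 for Cebpb, -0.11 for Pparg, -0.03 for Cebpa and 0.06 for Klf15, and the same 2 factors, Klf4 and Klf5, were called. The vehicle step of Cebpa from day 2 to day 7 was then 0.34, still called, and the difference of steps was 0.81 for Cebpa, 0.68 for Klf15, 0.44 for Pparg, 0.33 for Ebf1 and -0.39 for Cebpd, each still called. For Cebpb the calls were lost, with a vehicle step of 0.27 in place of 0.42 and a difference of steps of -0.42 in place of -0.58.

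In vehicle cells all 10 factors changed from day 0 to day 1, 8 upward and 2 downward, where 54.1% of all genes were called (26.2% higher and 27.9% lower). Among the early factors, Cebpd, a dexamethasone-responsive C/EBP, rose from 14.7, 16.8 and 12.8 CPM to 104, 116 and 123, a log2 fold change of 2.96 ± 0.13 (SE). Cebpb, induced through cyclic AMP, rose from 72.5, 76.4 and 65.2 CPM to 118, 165 and 170, a log2 fold change of 1.08 ± 0.17 (SE). Klf5, which acts downstream of the early C/EBPs on Pparg, rose from 25.6, 28.4 and 25.2 CPM to 102, 98.0 and 108, a log2 fold change of 1.96 ± 0.07 (SE). The day 0 and day 1 samples of these 3 genes did not overlap. Klf4, a Krüppel-like factor best known from pluripotent cells, fell from 46.2, 52.0 and 47.4 CPM to 4.93, 5.35 and 5.51, a log2 fold change of -3.20 ± 0.09 (SE). Among the sampled days Klf4, which acts on Cebpb in the early phase, was thus highest at day 0, unlike the other early factors. No sample was taken between day 0 and day 1, so a short rise of Klf4 within that time was not measured.

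From day 1 to day 2 in vehicle, 8 of the 10 factors were called, 5 higher and 3 lower, against 44.3% of all genes (22.3% higher and 22% lower). The 3 that fell were early factors. Klf5 fell to 39.6, 44.4 and 47.1 CPM, a log2 fold change of -1.23 ± 0.07 (SE), and Cebpd to 64.2, 59.5 and 72.5, of -0.81 ± 0.12 (SE). Cebpb fell to 93.6, 103 and 130 CPM, a log2 fold change of -0.47 ± 0.16 (SE), and its day 1 and day 2 samples overlapped. The Cebpb call was lost without day 1 vehicle replicate 2 (-0.40) or 3 (-0.38) or day 2 vehicle replicate 1 (-0.38). Klf4 rose from its low point to 6.52, 6.75 and 7.16 CPM. From day 2 to day 7, when 53.3% of all genes were called (26.6% higher and 26.7% lower), 6 factors rose and Klf5 fell further, to 12.6, 9.19, 10.2 and 11.8 CPM, below its day 0 level. Klf4 rose again to between 16.3 and 17.5 CPM, still under its day 0 level. Cebpb rose by 0.42 on the log2 scale, with overlapping samples, a call that was lost in the separate fit (0.42) and without day 7 vehicle replicate 1 (0.27) or day 2 vehicle replicate 1 (0.33) or 2 (0.39).

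The late factors rose at every step in vehicle. Pparg, the nuclear receptor that drives the adipocyte programme, went from 50.4, 54.8 and 55.0 CPM at day 0 to 78.1, 83.4 and 78.6 a day later, then to 165, 166 and 170 at day 2 and lastly 516, 465, 473 and 481 at day 7. Its log2 fold changes over the 3 steps were 0.58, 1.06 and 1.54. Cebpa, which keeps Pparg on and confers insulin sensitivity, went from 13.5, 11.9 and 11.1 CPM to 98.2, 118 and 113, then 336, 331 and 375, and 549, 412, 406 and 479 at day 7. Its rise was thus front-loaded, with log2 fold changes of 3.17, 1.66 and 0.41, and the last of these lost its call after quantile normalization (0.27). Klf15, an activator of the glucose transporter gene Slc2a4, was lowest at day 0 with 0.443, 0.624 and 0.464 CPM, reached 0.776, 1.13 and 1.37 at day 1 and 7.42, 7.70 and 7.98 at day 2, and then 146, 128, 132 and 127 at day 7. Its log2 fold changes were 1.10, 2.82 and 4.11, the reverse order of Cebpa, and the call at the day 0 to day 1 step was lost after quantile normalization (0.45).

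Among the partners, Rxra, the receptor that pairs with PPAR gamma, rose from between 183 and 196 CPM at day 0 to between 463 and 492 at day 1, a log2 fold change of 1.33 ± 0.05 (SE). Stat5a, which carries growth hormone and prolactin signals, rose from between 44.4 and 47.2 CPM to between 163 and 175, a log2 fold change of 1.89 ± 0.04 (SE). At later steps both were inside the fold threshold, though Stat5a from day 1 to day 2 (-0.28) and Rxra from day 2 to day 7 (-0.31) crossed it after quantile normalization (-0.38 and -0.43), and Rxra also without day 7 vehicle replicate 4 (-0.33). Ebf1, an early B-cell factor also active in fat precursors, fell from between 66.8 and 67.8 CPM to between 46.4 and 50.8 at day 1, rose to between 66.8 and 69.8 at day 2 and to between 81.0 and 92.5 at day 7. Its rise from day 2 to day 7 (0.35) lost its call without day 7 vehicle replicate 2 (0.32). From day 0 to day 7 all 10 factors were called, 8 higher, with Klf4 and Klf5 lower, against 73.5% of all genes (36.7% in each direction), and the call for Ebf1 (0.37) was lost after quantile normalization (0.30). In C70 cells 10, 7, 6 and 10 factors were called over the day 0 to 1, day 1 to 2, day 2 to 7 and day 0 to 7 steps, against 52.6%, 36.9%, 54.8% and 71.3% of all genes. Of all genes 25.8%, 18.8%, 27.6% and 35.9% were higher and 26.8%, 18.1%, 27.2% and 35.4% lower over these steps. The fall of Cebpb from day 1 to day 2 with C70 (-0.35) was not called on leaving out each of 6 samples in turn, with values from -0.37 to -0.32.

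**Figure D1:**
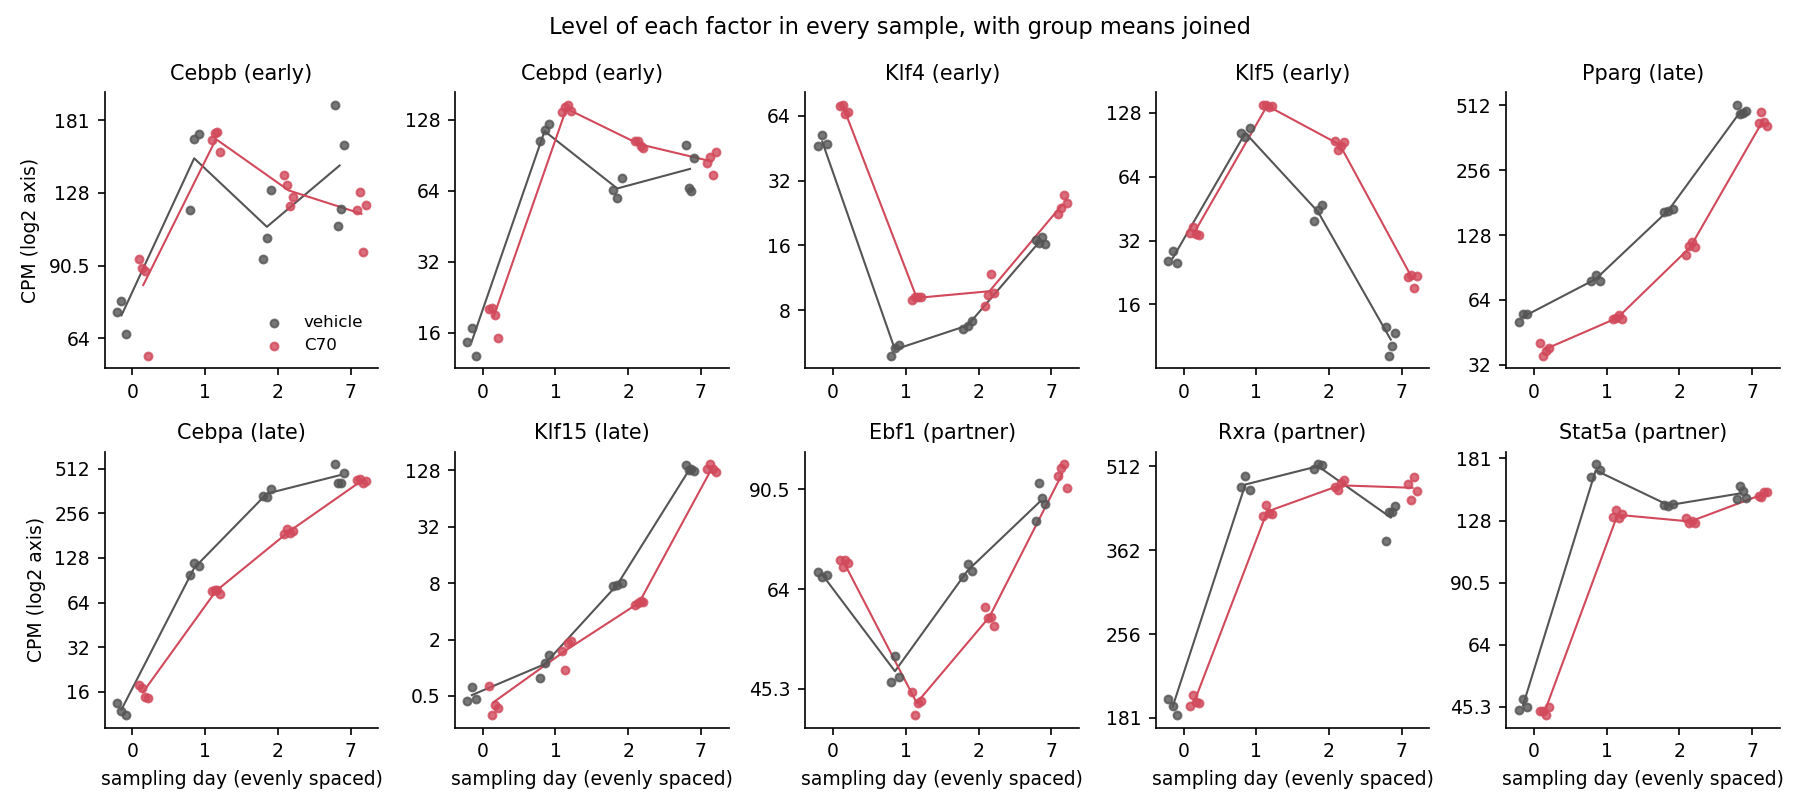
CPM of each factor on a log2 axis in every vehicle (grey) and C70 (red) sample at days 0, 1, 2 and 7, drawn at even spacing, with lines through group means. Pparg, Cebpa and Klf15 climb at each day in both treatments, Cebpd and Klf5 peak at day 1, and Klf4 is highest at day 0.

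Ordered by group mean, the 8 groups formed different ladders for the factors. For Klf5 the order from the lowest was day 7 vehicle (10.9 CPM), day 7 C70 (21.1), day 0 vehicle (26.4), day 0 C70 (35.0), day 2 vehicle (43.7), day 2 C70 (90.3), day 1 vehicle (103) and day 1 C70 (138), and no neighbouring groups overlapped. For Pparg it was day 0 C70 (37.8), day 1 C70 (52.9), day 0 vehicle (53.4), day 1 vehicle (80.0), day 2 C70 (112), day 2 vehicle (167), day 7 C70 (435) and day 7 vehicle (484), where day 1 C70 overlapped day 0 vehicle and the day 7 groups overlapped each other. Pparg in C70 cells at day 1, from 51.9 to 54.6 CPM, lay inside the range of vehicle cells before induction, from 50.4 to 55.0. For Cebpa each neighbouring pair was separate up to day 2 vehicle and day 7 C70, and the day 7 groups overlapped. Cebpb was the least ordered, since day 2 vehicle, day 7 C70, day 2 C70, day 7 vehicle, day 1 vehicle and day 1 C70 each overlapped the next, with means from 109 to 166 CPM.

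Per kilobase of exon (GENCODE M21), the most abundant factor in vehicle cells changed with time. At day 0 it was Cebpb at 47.5 CPM per kb, then Rxra at 34.7, Pparg at 18.1 and Klf4 at 15.9, with Cebpa at 4.62. At day 7 Cebpa (175 CPM per kb) and Pparg (164) led, ahead of Cebpb (97.03), Rxra (75.8) and Klf15 (47.8), which had been at 0.18. Klf5 was lowest at day 7, at 2.10.

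After C70 the early factors that changed were higher and, once differentiation was induced, the late factors that changed were lower. At day 0, before induction, 4 of the 10 factors were called, 3 higher and 1 lower, where 8.97% of all genes were called, 5.89% higher and 3.09% lower. At day 1, 2 were higher and 3 lower (13.6% and 7.80% of all genes, 21.4% together), at day 2, 3 were higher and 3 lower (16.9% and 13.6%, 30.5% together), and at day 7, 2 were higher and none lower (14.3% and 4.85%, 19.1% together). Each early factor that was called was higher after C70 at that day. Each late factor that was called was lower, except Cebpa at day 0. Cebpb, Ebf1 and Rxra were called at no day. After quantile normalization 51.0% of all called genes were higher at day 1, against 63.6% in the main fit. The share was 48.0% at day 2, against 55.5%, and 60.5% at day 7, against 74.6%. More called genes were thus lower than higher at day 2 after that normalization. Each factor kept its direction under it.

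**Figure D2:**
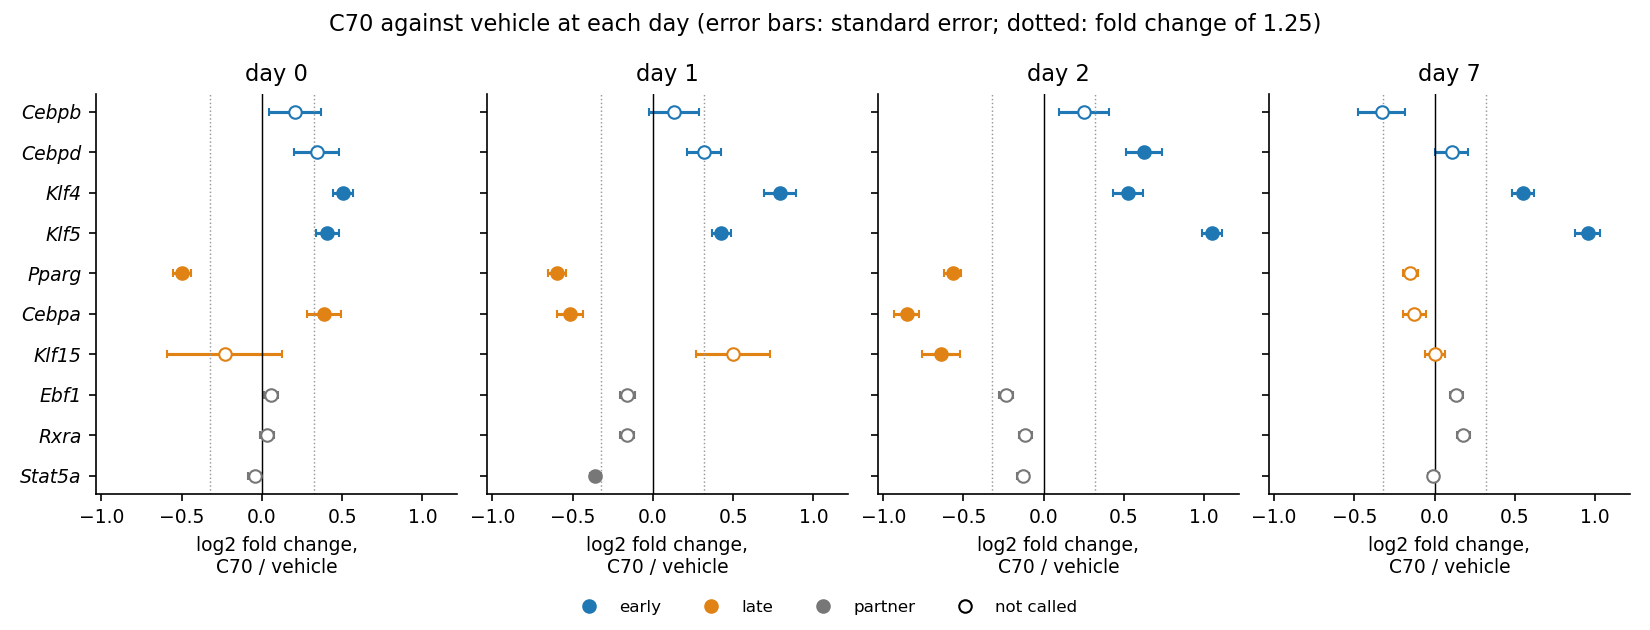
Log2 fold change of C70 against vehicle for each factor at each day, with its standard error. Filled points passed both thresholds and dotted lines mark the fold threshold of 25%. Klf4 and Klf5 lie to the right of 0 at each day, and Pparg lies at -0.50, -0.60 and -0.57 before it nears 0 at day 7.

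Among the early factors, Klf5 had the largest C70 difference, at day 2. It stood at 34.7, 36.9, 34.3 and 34.1 CPM with C70 against 25.6, 28.4 and 25.2 in vehicle at day 0, and at 140, 139, 136 and 137 against 102, 98.0 and 108 at day 1. At day 2 it was at 93.8, 85.2, 89.1 and 93.0 CPM against 39.6, 44.4 and 47.1, and at day 7 at 21.6, 21.9, 19.04 and 21.9 against 12.6, 9.19, 10.2 and 11.8. No C70 sample overlapped a vehicle sample of its day. The log2 fold changes were 0.41, 0.43, 1.05 and 0.95 (SE 0.07, 0.06, 0.06 and 0.08), with adjusted p of 6.11e-05, 1.07e-06, 2.12e-14 and 2.81e-11. Klf5 was thus nearest to vehicle at days 0 and 1 and farthest from it at day 2.

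Klf4 was also higher at each day. It stood at 71.2, 72.1, 65.3 and 66.5 CPM with C70 against 46.2, 52.0 and 47.4 in vehicle at day 0, and at 8.94, 9.20, 9.20 and 9.20 against 4.93, 5.35 and 5.51 at day 1. At day 2 it was at 8.38, 9.45, 11.9 and 9.58 CPM against 6.52, 6.75 and 7.16, and at day 7 at 22.5, 23.8, 27.4 and 25.1 against 17.1, 16.4, 17.5 and 16.3. Again the groups of each day did not overlap. The log2 fold changes were 0.50, 0.80, 0.52 and 0.55 (SE 0.06, 0.10, 0.09 and 0.07), with adjusted p of 5.66e-07, 1.45e-07, 2.64e-05 and 1.77e-07. Klf4 fell on induction in both treatments, by log2 steps of -2.91 with C70 and -3.20 without, and the difference between them was 0.29 ± 0.12 (SE, adjusted p 0.0821).

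Cebpd was called at day 2 alone. There it stood at 104, 103, 99.1 and 96.9 CPM with C70 against 64.2, 59.5 and 72.5 in vehicle, with no overlap, a log2 fold change of 0.63 ± 0.11 (SE) and an adjusted p of 2.16e-05. At day 1 the 4 C70 samples, at 138, 145, 148 and 139 CPM, were all above the vehicle samples, at 104, 116 and 123, but the log2 fold change of 0.32 (adjusted p 0.0179) was just under the fold threshold. It crossed the threshold in the separate fit, after a filter on low counts and on leaving out each of 5 samples in turn, with values from 0.32 to 0.37. At day 0 C70 replicate 4 was low at 15.2 CPM beside 20.2, 20.4 and 19.1, and the groups overlapped (log2 0.34, adjusted p 0.0890). Without that sample the difference was 0.44 and was called, as it was in the separate fit (0.33), after quantile normalization (0.37), by DESeq2 (0.34) and without day 7 vehicle replicate 1 (0.34). At day 7 the log2 fold change was 0.11 ± 0.10 (SE).

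Cebpb did not pass at any day. Its log2 fold changes were 0.21, 0.13, 0.25 and -0.33 (SE 0.16, 0.15, 0.16 and 0.14), with adjusted p of 0.419, 0.528, 0.181 and 0.0655, and the groups overlapped at each day. At day 0 C70 replicate 4 was the lowest C70 sample, at 58.9 CPM beside 93.3, 89.6 and 88.2, as it was for Cebpd. Leaving out 1 sample moved the day 0 value to between 0.14 and 0.34, the highest without that sample, and the day 2 value to between 0.15 without vehicle replicate 1 and 0.40 without vehicle replicate 3 of that day, none of them called. At day 7 vehicle replicates 1 and 4 were high, at 195 and 161 CPM beside 109 and 119. The same vehicle samples were the highest in Cebpd (99.6 and 87.8 CPM beside 65.6 and 63.6), Cebpa (549 and 479 beside 412 and 406) and Klf5 (12.6 and 11.8 beside 9.19 and 10.2). Without day 7 vehicle replicate 2 or 3 the difference in Cebpb was -0.45 or -0.42 and was called, as it was without day 0 C70 replicate 4 (-0.33), whereas without day 7 vehicle replicate 1 it was -0.15 and not called.

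Among the late factors, Pparg was lower with C70 before induction and until day 2. At day 0 it stood at 40.3, 35.3, 36.9 and 38.5 CPM with C70 against 50.4, 54.8 and 55.0 in vehicle. At day 1 it stood at 51.9, 52.6, 54.6 and 52.5 CPM against 78.1, 83.4 and 78.6, and at day 2 at 103, 114, 120 and 113 against 165, 166 and 170. The groups did not overlap on these days. The log2 fold changes were -0.50, -0.60 and -0.57 (SE 0.06, 0.06 and 0.05), with adjusted p of 1.10e-07, 4.43e-10 and 1.86e-10. At day 7 the C70 samples, at 422, 476, 430 and 413 CPM, overlapped the vehicle samples, at 516, 465, 473 and 481, and a log2 fold change of -0.15 ± 0.05 (SE, adjusted p 0.0105) was inside the fold threshold.

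Cebpa changed sign on induction. At day 0 it was higher with C70, at 17.8, 16.9, 14.7 and 14.6 CPM against 13.5, 11.9 and 11.1, a log2 fold change of 0.39 ± 0.11 (SE, adjusted p 0.00842), a call that was lost without day 0 vehicle replicate 3 (0.33). At day 1 it was lower, at 77.1, 78.4, 77.7 and 73.5 CPM against 98.2, 118 and 113, a log2 fold change of -0.52 ± 0.08 (SE, adjusted p 5.23e-06). At day 2 it stood at 186, 199, 189 and 195 CPM against 336, 331 and 375, a log2 fold change of -0.85 ± 0.08 (SE, adjusted p 9.09e-11), the largest fall of any of the 10 factors. The groups were separate at each of these days and overlapped at day 7, where the log2 fold change was -0.13 ± 0.07 (SE, adjusted p 0.158).

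Klf15 differed at day 2 alone. It stood at 4.64, 4.89, 5.15 and 5.07 CPM with C70 against 7.42, 7.70 and 7.98 in vehicle, with no overlap, a log2 fold change of -0.64 ± 0.12 (SE) and an adjusted p of 4.19e-05. At day 0, where all 7 samples were between 0.311 and 0.640 CPM, the log2 fold change was -0.23 ± 0.36 (SE). At day 1 it was 0.50 ± 0.23 (SE, adjusted p 0.0813), with C70 samples at 1.49, 0.935, 1.82 and 1.95 CPM and vehicle samples at 0.776, 1.13 and 1.37. That difference was called when vehicle replicate 3 (0.69) or C70 replicate 2 (0.69) of day 1 was left out. At day 7, with means of 134 CPM in C70 and 133 in vehicle, the log2 fold change was 0.00 ± 0.06 (SE).

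Of the partners Stat5a was called at day 1, where C70 samples stood at 130, 136, 130 and 133 CPM against 163, 175 and 170 in vehicle, a log2 fold change of -0.36 ± 0.04 (SE, adjusted p 2.09e-09). The groups were still separate at day 2, at 126 to 130 against 139 to 140 CPM, inside the fold threshold (-0.13, adjusted p 0.00315). Ebf1 had log2 fold changes of 0.06, -0.16, -0.23 and 0.14 from day 0 to day 7, with adjusted p of 0.386, 0.00602, 5.02e-05 and 0.00680. Those of Rxra were 0.03, -0.16, -0.11 and 0.18, with adjusted p of 0.686, 0.00334, 0.0281 and 0.000686. For Ebf1 and Rxra the differences at days 1, 2 and 7 passed on the adjusted p and were inside the fold threshold.

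The change from one day to the next was then compared between treatments by an interaction contrast in the same model. This difference of steps equals the change in the C70 effect between those days, so it rests on the same samples as the effects above. From day 0 to day 1, 1 of 10 factors was called (13.9% of all genes, 8.68% higher and 5.23% lower). Cebpa rose less with C70, a log2 step of 2.26 against 3.17 and a difference of -0.90 ± 0.13 (SE, adjusted p 8.21e-06). Stat5a also had a smaller step, 1.58 against 1.89, a difference of -0.31 (adjusted p 7.04e-05) that was inside the fold threshold and crossed it after quantile normalization (-0.35) or on leaving out each of 4 samples in turn, with values from -0.34 to -0.32. The steps of Pparg were 0.49 and 0.58, with a difference of -0.10 ± 0.08 (SE, adjusted p 0.438), and its level was already lower with C70 at day 0.

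From day 1 to day 2, 3 factors were called (13.8% of all genes, 7.36% higher and 6.49% lower). Klf5 fell less with C70, a step of -0.61 against -1.23 and a difference of 0.62 ± 0.09 (SE, adjusted p 4.87e-06). Klf15 rose less, 1.68 against 2.82, a difference of -1.14 ± 0.26 (SE, adjusted p 0.00167), and so did Cebpa, 1.33 against 1.66, a difference of -0.34 ± 0.11 (SE, adjusted p 0.0298). The Cebpa difference was not called in the separate fit (-0.32) or on leaving out each of 5 samples in turn, among them day 1 vehicle replicate 1 (-0.26) and day 2 vehicle replicate 3 (-0.28).

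From day 2 to day 7, 6 factors were called, 4 higher and 2 lower (20.9% of all genes, 11.9% higher and 9.04% lower). Cebpa, Klf15 and Pparg rose more with C70, by 1.14 against 0.41, 4.76 against 4.11 and 1.95 against 1.54. These differences were 0.73 ± 0.10, 0.64 ± 0.13 and 0.42 ± 0.07 (SE), with adjusted p of 2.62e-06, 0.000445 and 3.52e-05. For Klf15 the call was lost after quantile normalization although the difference was 0.74. Ebf1 also rose more, 0.72 against 0.35, with a difference of 0.37 ± 0.06 (SE, adjusted p 1.53e-05). The C/EBP early factors went the other way, with steps of -0.24 against 0.27 for Cebpd and -0.16 against 0.42 for Cebpb, and differences of -0.52 ± 0.15 and -0.58 ± 0.21 (SE, adjusted p 0.00929 and 0.0357). The Cebpb difference was not called on leaving out each of 7 samples in turn, among them day 7 vehicle replicate 1 (-0.42), nor by DESeq2 (-0.57) or in the separate fit (-0.57).

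**Figure D3:**
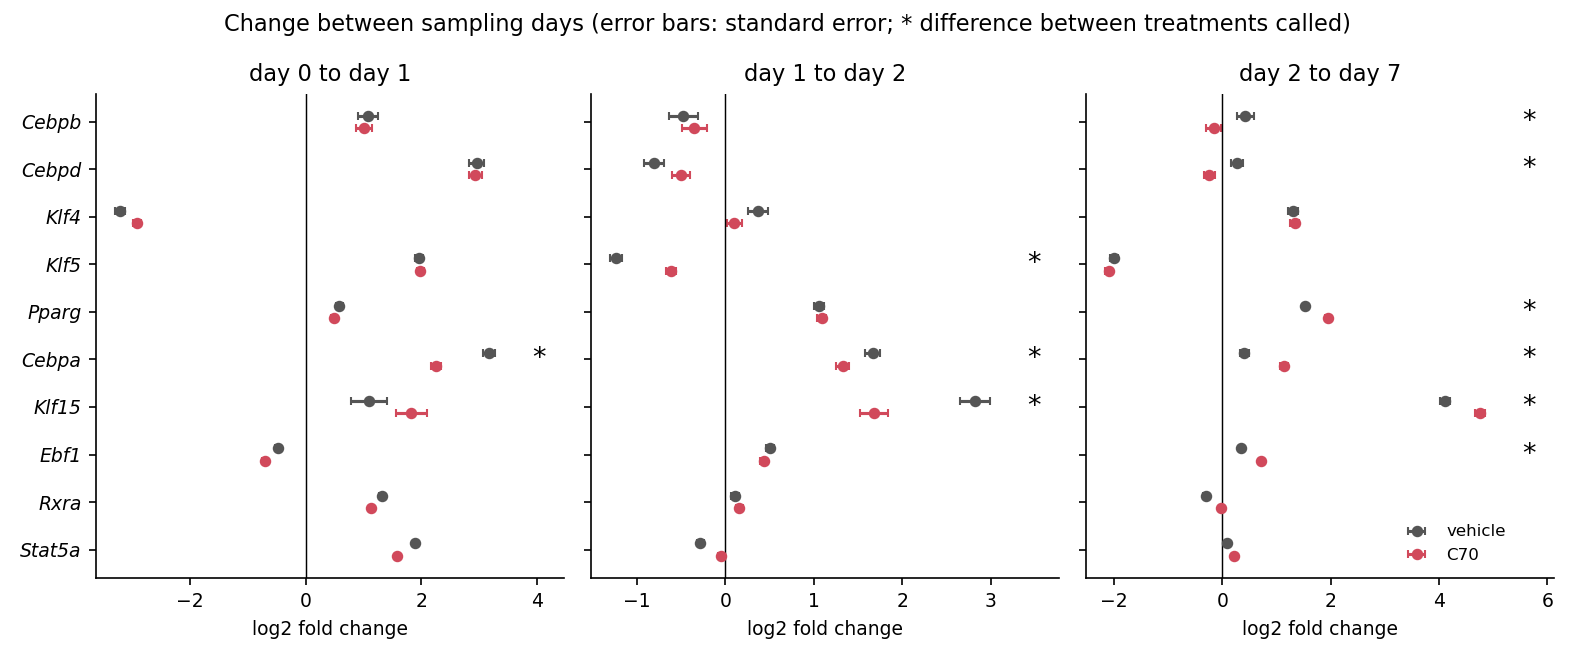
Log2 fold change of each factor between successive sampling days in vehicle (grey) and C70 (red), with standard errors. An asterisk marks factors whose step differed between treatments by both thresholds: 1 from day 0 to day 1, 3 from day 1 to day 2 and 6 from day 2 to day 7.

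The mean log2 level of the 4 early factors minus that of the 3 late factors, set to 0 in day 0 vehicle, gives a single value per sample. It is given as a description with no test, and whether it measures progress along the cascade was not tested. In vehicle the group means were -0.90 at day 1, -3.29 at day 2 and -5.31 at day 7 (SD 0.06, 0.08 and 0.12). In C70 they were 0.49, -0.27, -1.99 and -4.89 from day 0 to day 7 (SD 0.20, 0.17, 0.06 and 0.10). C70 samples thus stood above vehicle samples by 0.49, 0.63, 1.30 and 0.42, and no C70 sample reached the vehicle range of its day. Split by set, the early mean in C70 was 1.12 against 0.70 at day 1 and 0.77 against 0.16 at day 2, while the late mean was 1.39 against 1.60 and 2.76 against 3.45. At day 0 the early mean was 0.36 above that of vehicle and the late mean 0.13 below it. The late factors disagreed there, with log2 fold changes of -0.50 for Pparg, 0.39 for Cebpa and -0.23 ± 0.36 (SE) for Klf15. At day 7 the early mean was 0.48 against 0.15 and the late mean 5.37 against 5.46, so that most of the gap lay in the early set. Within that set the gap came from Klf5 (0.95) and Klf4 (0.55), while Cebpd (0.11) and Cebpb (-0.33) were not called. At day 2, where the gap was widest, the sets differed in opposite directions. In vehicle the early group mean stayed above 0 at days 1, 2 and 7. The fall of the vehicle difference below 0 thus came from the late set.

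**Figure D4:**
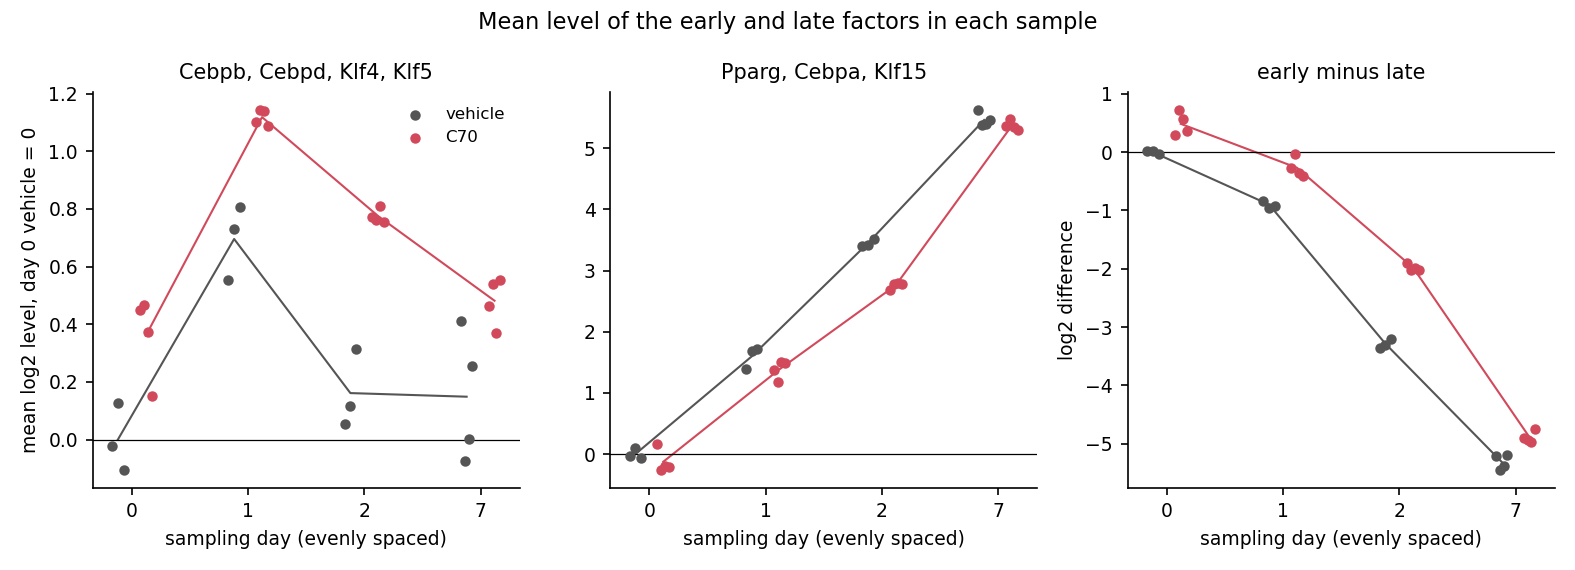
Mean log2 level of the early factors, of the late factors and their difference in each sample, relative to day 0 vehicle, for vehicle (grey) and C70 (red), with lines through group means. In the right panel C70 samples lie above vehicle samples at each day, by 1.30 on average at day 2.

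The genes whose mean log2 levels over the 8 groups were most like those of the factors were taken from 5979 genes in the upper part of mean level. For Pparg they were Gcdh (r = 0.997), a dehydrogenase of lysine breakdown, Ppp6c (0.995), a phosphatase subunit, and Mccc1 (0.995), a carboxylase subunit of leucine breakdown. For Cebpa they were Ginm1 (0.998), Rmc1 (0.997) and Pank3 (0.997), a pantothenate kinase of coenzyme A synthesis. For Cebpb they were Tgoln1 (0.987), Slc4a4 (0.980), a sodium bicarbonate cotransporter, and Sirt7 (0.980), a sirtuin. Over the 29 samples the same correlations were 0.986 to 0.994 for Pparg and 0.986 to 0.996 for Cebpa but 0.789 to 0.860 for Cebpb. Points of a treatment and day share their medium and time, and these correlations say only that the profiles were alike.

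Over all genes the shares called higher with C70 were 5.89%, 13.6%, 16.9% and 14.3% on days 0, 1, 2 and 7, and those called lower were 3.09%, 7.80%, 13.6% and 4.85%, beside which the counts of the gene lists that follow are given. Downstream genes were followed in a list of 19 adipocyte genes known as targets of PPAR gamma and C/EBP alpha (Aqp7 was not analysed here). The list includes all 5 adipocyte markers summed above, so the marker sums and these counts are not separate observations. In vehicle 18 of 19 rose from day 0 to day 1, 18 rose and 1 fell from day 1 to day 2, and 9 rose and 5 fell from day 2 to day 7, where the shares over all genes were 26.2%, 22.3% and 26.6% higher and 27.9%, 22% and 26.7% lower. With C70 at day 0, 1 was higher and 2 were lower, with a median log2 fold change of 0.18, while the median over all genes was near 0 at each day. Angptl4, a lipase inhibitor, stood at 36.3 ± 1.13 CPM (SD, n = 4) against 57.7 ± 6.89 (SD, n = 3), and Fabp4, a fatty acid carrier, at 38.0 ± 2.23 (SD, n = 4) against 50.6 ± 0.88 (SD, n = 3), while Plin4, a lipid droplet protein, was higher (0.36). Of the 19 genes, 12 had a value above 0 at day 0 and 7 below.

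At day 1 the list had 10 genes lower and 1 higher after C70, with a median of -0.44 beside -0.01 over all genes, and at day 2 it had 14 lower and 1 higher, with a median of -0.66. Gpd1, which makes the glycerol backbone of triglyceride, had the largest fall on both days, from 14.03 ± 2.14 to 2.94 ± 0.52 CPM at day 1 (log2 fold change -2.26 ± 0.15, SE) and from 747 ± 16.7 to 184 ± 28.3 at day 2 (-2.03 ± 0.09, SE). Acsl1, an acyl-CoA synthetase, followed at day 1 (-1.30 ± 0.05, SE), and Slc2a4, the insulin-responsive glucose transporter and a gene that KLF15 acts on, at day 2 (-1.22 ± 0.11, SE). The genes that were higher were Pck1, an enzyme of glyceroneogenesis, at day 1 (1.19) and Angptl4 at day 2 (0.41). Pck1 was measured with little precision early on, and its vehicle step from day 0 to day 1 was 0.04 ± 0.36 (SE). At day 7 the count was 2 higher and 1 lower, with a median of 0.08. Adipoq (0.35) and the fatty acid transporter gene Cd36 (0.33) were higher, and Pck1 was lower (-0.73).

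**Figure D5:**
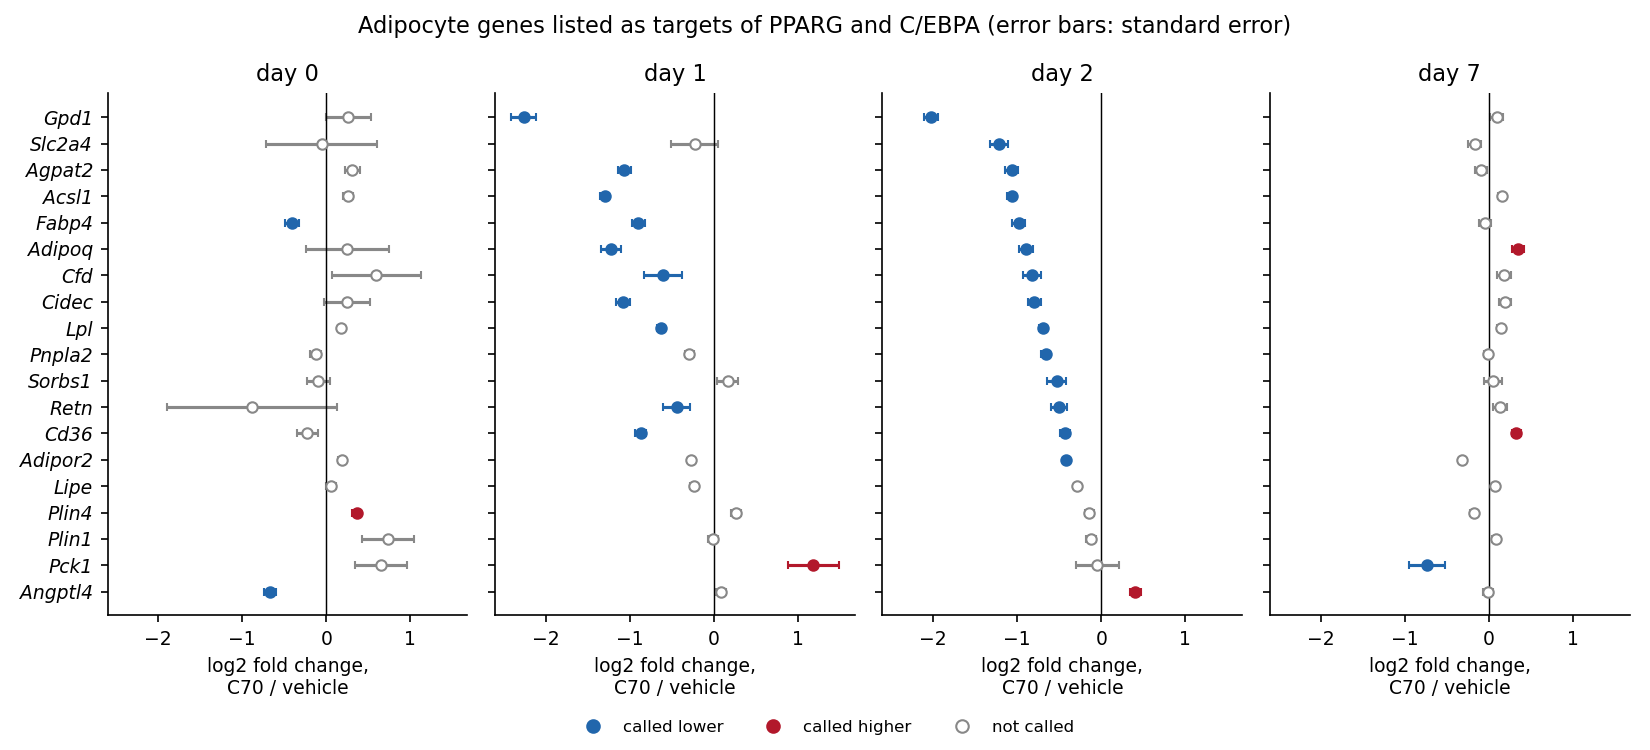
Log2 fold change of C70 against vehicle, with standard errors, for 19 adipocyte genes listed as targets of PPAR gamma and C/EBP alpha, in the order of their day 2 value. Called genes are filled in blue (lower) or red (higher): 14 are lower at day 2 and 1 at day 7.

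Other transcription regulators of the pathway were read in the same way. Of 14 known inhibitors of adipogenesis, 9 fell and 1 rose in vehicle from day 0 to day 1 (27.9% and 26.2% of all genes), and with C70 2, 4, 4 and 2 were higher and 1, 0, 1 and 1 lower on days 0, 1, 2 and 7, at day 7 near the shares over all genes. Their median log2 fold changes were 0.15, 0.19, 0.24 and -0.01. Gata2, a GATA factor that opposes Pparg, was higher at day 0 (0.41), day 1 (0.52) and day 2 (1.08), where its levels were low, at 1.05 ± 0.30 CPM (SD, n = 3) in vehicle and 2.30 ± 0.66 (SD, n = 4) with C70. Zfp521, a repressor of EBF1, was higher at day 2 (0.76) and day 7 (1.08), and the Notch effector Hes1 at day 0 (0.40) and day 7 (0.36), and Id3 at day 1 (0.47). Klf3, a repressor of Cebpa, was lower at day 0, at 97.2 ± 2.11 CPM (SD, n = 4) against 139.6 ± 4.79 (SD, n = 3), Foxo1 was lower at day 2 (-0.41) and Bhlhe40 at day 7 (-0.40).

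Of 16 other positive regulators, 2 were higher with C70 on each day, near the shares over all genes at days 1, 2 and 7, and 0, 1, 1 and 0 were lower, with medians of 0.04, 0.05, -0.01 and 0.08. Egr2, which acts on Cebpb beside KLF4, was higher at day 0 (0.72) and day 1 (0.34). Klf6 was higher at day 1 (0.45) and day 2 (0.55), and Ebf2, a relative of Ebf1, at day 2 (0.37) and day 7 (0.39). The oxysterol receptor gene Nr1h3 was higher at day 0 (0.36) and Zfp467 at day 7 (0.34). Stat5b, the close relative of Stat5a, was lower at day 1, at 46.6 ± 2.21 CPM (SD, n = 4) against 62.2 ± 2.35 (SD, n = 3), a log2 fold change of -0.42 beside -0.36 for Stat5a, and Nfib at day 2 (-0.33).

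Of 6 genes known to respond to STAT5, 4 fell and 1 rose in vehicle from day 0 to day 1 (27.9% and 26.2% of all genes). Their median log2 fold change was -0.96, while Stat5a (1.89) and Stat5b (0.85) rose. With C70 at day 1, when Stat5a and Stat5b were lower, 4 of the 6 were higher and none lower. The median log2 fold change of the list was 0.60 there, beside -0.01 over all genes. Cish (0.79) and Pim1 (0.77) were the leading ones. At the other days the counts higher and lower were 1 and 0, 3 and 1, and 1 and 0, with medians of 0.21, 0.28 and -0.10. The cytokine-signal inhibitor gene Socs3 was higher at day 2 (0.89) and day 7 (0.77), Cish at day 2 (1.03) and Pim1 at day 0 (0.55), and Bcl6 was lower at day 2 (-0.41). Protein and phosphorylation of STAT5 were not analysed here.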

How the data were processed

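RNA was measured in 29 samples of 3T3-L1 cells in 8 groups. The authors used STAR 2.7.2a, the GRCm38 genome and annotation of Ensembl release 97 for reads of strand-specific libraries, and edgeR 3.26.8 is listed in the submitters' processing notes. The paper names a later edgeR version. The deposited values are whole-number counts per gene, not scaled between samples, although the table is named as normalized. The counting program and the filter on low genes are not given in the sources used here, and each gene listed had a CPM above 1 in at least 20 samples. Symbols were matched for 11953 of 11959 identifiers. Gene positions, strands and exon lengths came from GENCODE M21 on GRCm38 (Ensembl release 96), a release below that of the authors, and start-site windows from RefSeq.

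Counts were fitted in R 4.3.3 with edgeR 4.0.16 (quasi-likelihood test, TMM factors, 8 group means, all 29 samples), with Benjamini-Hochberg adjustment across the 11959 genes of each comparison. The thresholds of 0.05 and 1.25-fold are those of the study. Each factor was tested in each comparison. C70 against vehicle and the steps between successive days are drawn for each factor. The other comparisons are given as counts with the values of selected factors. From each other list up to 2 called genes with the largest rise and up to 2 with the largest fall were named, and for Pparg, Cebpa and Cebpb the 3 genes with the highest correlation over group means. Log2 levels for the early and late means and for correlations used a prior count of 0.5. The factors and lists were chosen with earlier results of these data known. The test was also run on simulated data, and its outcome there is not reported here. Alternatives were DESeq2 1.42.0, its size factors in edgeR, limma 3.58.1 with voom or after quantile normalization, a filter of CPM above 5 in 3 samples, separate fits, a replicate block, other fold thresholds, a prior count of 2 and leaving out each sample. Replicates of a group differed by more than counting noise over 39 pairs, with a chi-square per degree of freedom of 2.67 to 47.1, highest in the 3 pairs of day 7 vehicle replicate 1, so none was merged. Library totals were 16320275 to 24037170 counts, and the lowest factor counts, where counting error weighs most, were those of Klf15 at day 0. Python 3.11.15, pandas 2.3.3 and matplotlib 3.10.9 served for tables and plots. Other assays of the study were not analysed here, and a result of the coactivator and corepressor list is not reported here.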

Additional observations from a re-analysis of the deposited data

Results flagged for a closer look

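In groups of 4 C70 or vehicle samples, the gap between an extreme sample and its neighbour was large against the range of the group in 3 cases. Cebpb in day 0 C70 replicate 4 was at 58.9 CPM beside 88.2 to 93.3 in the other samples. Klf4 in day 1 C70 replicate 1 was at 8.94 CPM beside 9.20 in each of the others, a small distance in a very tight group. Klf5 in day 7 C70 replicate 3 was at 19.04 CPM beside 21.6 to 21.9. Chance flags about 1 in 20 such groups, so that 2.5 would be met in the 50 groups of 4 looked at. Groups of 3 were not examined in this way.

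The change between successive days differed between C70 and vehicle by the interaction test for 10 values, given as C70 minus vehicle on the log2 scale. From day 0 to day 1 it differed for Cebpa (-0.90). From day 1 to day 2 it differed for Klf5 (0.62), Klf15 (-1.14) and Cebpa (-0.34). From day 2 to day 7 it differed for Cebpa (0.73), Klf15 (0.64), Pparg (0.42), Ebf1 (0.37), Cebpd (-0.52) and Cebpb (-0.58). The steps before and after day 1 or day 2 share the samples of that day, so a low or high value there enters neighbouring differences with opposite signs.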

How the results depend on the processing

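Of 5400 values of single factors under the alternatives other than fold thresholds, 5310 kept their direction and their side of the thresholds, 34 lost a call, 30 gained one and 26 changed sign, none of those 26 at a called value. The number of factors called in C70 against vehicle went from 4 to 0 at day 0 by edgeR, 5 to 2 at day 1 and 2 to 1 at day 7 with a fold change over 1.5 (3.3%, 9.12% and 8.80% of all genes; 5 factors and 30.8% of all genes had an unadjusted p under 0.05 at day 0), and to 8 at day 1 and 5 at day 7 with no fold threshold (40.7% and 41.1% of all genes). With a fold change over 1.5 it was 5 for vehicle from day 1 to day 2, 4 from day 2 to day 7, 4 for C70 from day 1 to day 2 and 2 for the difference of steps from day 2 to day 7 (24.8%, 32.3%, 16.8% and 9.48% of all genes). For the difference from day 0 to day 1 it was 4 with no fold threshold (19.9% of all genes) and 2 after quantile normalization, where Stat5a was added. With another fold threshold the fold changes were the same and the threshold alone moved these counts. Leaving out 1 sample gave 3 to 5 called factors at day 0, 5 to 7 at day 1, 6 at day 2 and 2 to 3 at day 7, 7 to 8 and 6 to 8 for the later vehicle steps, 6 to 7 for C70 from day 1 to day 2, and 1 to 2, 2 to 4 and 5 to 6 for the differences of steps. Signs changed only near 0: Klf15 at day 7 was -0.0072 in the separate fit, Rxra with C70 from day 2 to day 7 was 0.0049 with DESeq2 or its size factors, the difference of steps of Klf5 from day 0 to day 1 was -0.042 and that of Pparg from day 1 to day 2 was -0.010 after quantile normalization. On leaving out 1 sample the values that changed sign ranged from -0.019 to 0.23 for Cebpb at day 1, -0.047 to 0.056 for Klf15 and -0.020 to 0.013 for Stat5a at day 7, -0.037 to 0.022 for Rxra with C70 from day 2 to day 7, and, for differences of steps, -0.23 to 0.019 for Cebpb, -0.12 to 0.067 for Cebpd and -0.036 to 0.054 for Klf5 from day 0 to day 1, -0.00094 to 0.069 for Pparg from day 1 to day 2 and -0.041 to 0.13 for Klf4 from day 2 to day 7. Same-numbered replicates did not deviate together, with correlations from -0.18 to 0.20 over 13 pairs of samples, so the numbers were not read as a pairing. With the replicate block the counts of called factors were 4, 5, 6 and 2 for C70 against vehicle from day 0 to day 7, and equal to those without it in the other comparisons too. The early minus late gap with a prior count of 2 was 0.47, 0.64, 1.30 and 0.42. Of the 3 genes most like Pparg, Cebpa and Cebpb over the group means, 2, 2 and 0 were also the most alike over the 29 samples. At the depth of these libraries the limit fell on Klf15, whose standard error was 0.36 at day 0 and 0.23 at day 1.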

Other observations

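Genes that answer to the hormones of the differentiation medium were read in a list of 12 glucocorticoid and cyclic AMP response genes. In vehicle 10 rose and 1 fell over the first day of induction (median log2 fold change 1.18), when 26.2% of all genes rose and 27.9% fell. With C70 2, 2, 4 and 3 were higher and 0, 1, 1 and 2 lower on days 0, 1, 2 and 7, where 5.89%, 13.6%, 16.9% and 14.3% of all genes were higher and 3.09%, 7.80%, 13.6% and 4.85% lower, with medians of 0.21, 0.23, 0.19 and -0.01. Tsc22d3, a glucocorticoid-induced leucine zipper gene, was higher at day 2, at 356 ± 12.1 CPM (SD, n = 4) against 222 ± 0.95 (SD, n = 3), and at day 7 (0.49). Sik1, a kinase gene induced by cyclic AMP, was higher at day 2 (0.76), Nr4a1 at day 0 (0.39) and day 1 (0.44), Pde4b at day 0 (0.44) and Fos at day 1 (0.67). The kinase gene Sgk1 was lower at day 1 (-0.37) and day 2 (-0.44) and higher at day 7 (0.59), where Pde4d (-0.57) and Dusp1 (-0.39) were lower.

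Of 17 coactivators and corepressors that work with nuclear receptors and C/EBPs, 1, 2 and 2 were higher and 3, 2 and 1 lower with C70 on days 1, 2 and 7, not above the shares over all genes for those higher, with medians of 0.01, -0.00 and 0.14. The PGC-1 coactivators went opposite ways. Ppargc1a was higher at day 1 (0.62), day 2 (1.03) and day 7 (0.73), at 71.7 ± 7.60 CPM (SD, n = 4) against 35.1 ± 1.31 (SD, n = 3) at day 2. Ppargc1b was lower at day 1 (-0.72), day 2 (-0.52) and day 7 (-0.49). Ncoa1 was lower at day 2 (-0.44) and Paxip1 at day 1 (-0.36), and Kmt2c was higher at day 2 (0.34) and Nrip1 at day 7 (0.38).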
